A study of Homo sapiens with 6 samples.

Results

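Replication-dependent histone genes were followed between parental HN5 cells and their erlotinib-resistant derivative. The members were chosen by gene symbol, without use of measured values: the linker histone genes H1-1 to H1-6 and all genes named H2AC, H2BC, H3C or H4C with a number. On the array 69 such genes were named, of 20046 named genes in all, by 78 probes. They were 6 H1, 17 H2A, 18 H2B, 13 H3 and 15 H4 genes. HN5 cells come from a human squamous carcinoma of the head and neck. The drug, erlotinib, blocks the receptor tyrosine kinase EGFR. The parental group (3 arrays) is the erlotinib-sensitive line. The resistant group (3 arrays) was derived from it by passage in rising erlotinib over 3 months to 12.5 µM and by culture at 12.5 µM for a further 6 months. All resistant arrays measured that one derived line, and the labels do not say whether the drug was present at harvest, so drug exposure, time in culture and resistance cannot be told apart.

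Replication-dependent histone genes encode the H1 linker histones and the H2A, H2B, H3 and H4 core histones that package newly made DNA. They lie in clusters, have no introns in their classical form, and are transcribed mainly in S phase. Their classical mRNAs end in a conserved stem-loop instead of a poly(A) tail, whereas some of these genes also give polyadenylated mRNA, for example in differentiating cells. The labelling kit named in the labels, Ambion MessageAmp, primes cDNA with oligo(dT), so polyadenylated mRNA is what it is designed to copy. What share of each histone mRNA carried a tail was not measured. Because whole cultures were measured, a change in the share of cells that make a histone mRNA and a change in its amount per cell cannot be told apart, in either direction.

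The values are the authors' normalized log2 signals. A probe counted as above background on an array when it exceeded the most frequent value by 3 SD of the values below it, a limit of 6.97 to 6.98 on the 6 arrays. A gene was tested with limma if a probe of it exceeded this limit on 3 or more of the 6 arrays. The p-values of the 11421 genes tested were adjusted together (Benjamini-Hochberg), with a threshold of 0.05. Arrays of the same group correlated at r = 0.9965 to 0.997 over all probes and arrays of different groups at 0.9783 to 0.9795; probes are not independent replicates. The labels call the samples biological replicates without naming separate cultures. The p-values therefore reflect only the scatter among these 6 samples, part of which may be technical. All 5 squamous epithelial markers with a named probe (KRT5, KRT14, SFN, DSG3 and CDH1) were above background on every array. They were lower in resistant cells, with a summed signal of 14.40 to 14.55 on the log2 scale in parental and 13.73 to 13.81 in resistant arrays.

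Of the 69 histone genes, 27 were tested. The other 42 did not pass the filter: 35 were at background on all 6 arrays and 7 (H1-3, H2BC14, H2BC15, H3C11, H4C5, H4C11 and H4C16) were above it on 1 or 2. Their array values ran from 6.62 to 7.07, and their differences from -0.15 to 0.08, a range in which a change is hardly measurable on this scale. Of the tested genes, 20 were above background on all 6 arrays. H2BC9 and H3C10 entered the test through the parental arrays alone.

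The upstream sequences below introduce the genes that carry the results. They come from RefSeq on GRCh38.p14, read from the table of promoters supplied for this work, which held 64 of the 69 members (H2AC12, H3C11, H3C12, H4C1 and H4C3 had no entry). The first 3 are the stretches between the starts of an H2A and an H2B gene that are transcribed away from each other. They are chr1:149886683-149886917, chr6:26123927-26124171 and chr6:27132796-27133042, each on the plus strand, with the H2B gene on the left and the H2A gene on the right. The other 4 are the 250 bases upstream of H2BC5 (chr6:26157871-26158120, plus strand), H2AC18 (chr1:149842751-149843000, minus strand), H1-2 (chr6:26056471-26056720, minus strand) and H4C8 (chr6:26285535-26285784, minus strand). They are shown because these genes stand for the H2B, H2A, H1 and H4 genes with the highest differences of their type. Capitals mark 4 motifs on either strand, which may overlap: the TATA box TATAAA, the CCAAT box, the octamer ATTTGCAT known from H2B promoters, and GGTCCG, the core of an element known from H4 promoters.
H2BC21 and H2AC20: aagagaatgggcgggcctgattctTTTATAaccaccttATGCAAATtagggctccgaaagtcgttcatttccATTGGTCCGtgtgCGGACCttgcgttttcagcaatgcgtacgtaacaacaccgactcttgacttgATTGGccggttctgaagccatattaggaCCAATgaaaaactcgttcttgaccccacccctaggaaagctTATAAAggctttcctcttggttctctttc
H2BC4 and H2AC6: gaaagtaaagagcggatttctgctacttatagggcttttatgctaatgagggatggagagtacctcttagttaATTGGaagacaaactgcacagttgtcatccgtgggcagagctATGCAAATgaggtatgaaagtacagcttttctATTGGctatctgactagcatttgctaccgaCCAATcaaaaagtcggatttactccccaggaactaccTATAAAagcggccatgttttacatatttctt
H2BC11 and H2AC11: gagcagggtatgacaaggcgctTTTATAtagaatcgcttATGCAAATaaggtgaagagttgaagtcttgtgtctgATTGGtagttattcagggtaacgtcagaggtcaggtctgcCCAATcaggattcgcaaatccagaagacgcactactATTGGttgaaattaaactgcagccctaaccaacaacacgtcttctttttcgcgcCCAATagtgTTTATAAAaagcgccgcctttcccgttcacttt
H2BC5: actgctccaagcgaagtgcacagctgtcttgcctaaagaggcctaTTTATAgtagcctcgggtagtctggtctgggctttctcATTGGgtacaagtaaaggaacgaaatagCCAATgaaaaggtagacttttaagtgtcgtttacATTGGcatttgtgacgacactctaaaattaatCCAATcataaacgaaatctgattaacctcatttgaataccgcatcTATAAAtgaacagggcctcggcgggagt
H2AC18: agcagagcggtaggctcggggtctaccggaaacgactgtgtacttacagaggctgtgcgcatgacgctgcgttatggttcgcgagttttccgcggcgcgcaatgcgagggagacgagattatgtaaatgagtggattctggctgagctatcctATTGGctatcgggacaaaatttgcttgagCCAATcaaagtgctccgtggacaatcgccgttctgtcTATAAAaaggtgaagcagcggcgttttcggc
H1-2: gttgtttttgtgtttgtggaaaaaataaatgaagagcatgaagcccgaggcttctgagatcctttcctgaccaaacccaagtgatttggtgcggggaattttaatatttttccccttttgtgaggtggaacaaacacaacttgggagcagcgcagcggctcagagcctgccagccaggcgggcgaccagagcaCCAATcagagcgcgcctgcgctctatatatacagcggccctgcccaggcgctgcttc
H4C8: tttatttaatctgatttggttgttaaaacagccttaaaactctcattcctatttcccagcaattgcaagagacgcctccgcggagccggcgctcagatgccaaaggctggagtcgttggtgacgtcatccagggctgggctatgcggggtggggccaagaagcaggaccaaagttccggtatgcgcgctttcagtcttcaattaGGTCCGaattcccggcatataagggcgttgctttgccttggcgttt

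The octamer was present within 250 bases upstream in 14 of 18 H2B genes (77.8%) and 11 of 16 H2A genes (68.8%), against 1.66% of all 27305 promoters in the table. It was in 1 of 11 H3 windows and in 0 of 6 H1 and 0 of 13 H4 windows. The 1 H3 window, of H3C4, has the same start as that of H2AC7, with 222 bases to the start of H2BC7. Its octamer is therefore also counted among the H2A genes. The GGTCCG core was present in 12 of 13 H4 genes (92.3%), against 9.33% of all promoters. CCAAT was in every H1, H2A, H2B and H3 window and in 23.1% of the H4 windows, against 33% of all promoters, and TATAAA was in 65.6% of the members' windows, against 11.1%. Genes in a head-to-head pair share most of their windows, so these counts are not independent. By array result, the octamer was in 6 of the 11 members that were higher in resistant cells, in 6 of 15 tested members past no threshold and in 14 of 38 untested members with a window. A match describes the letters of a window and no more.

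Histone genes with a measurable change were mostly higher in the resistant cells, up to 2.07-fold. Of the 27 tested, 11 were higher and 1 was lower, as plotted by type and, for these 12, array by array. That is 44.4% called, against 52.8% of all genes tested, so the share called is no result about these genes. The higher calls were 40.7% of the tested members against 26% of all genes, and the lower calls 3.7% against 26.8%. A rise of at least 1.5-fold was called for 6 of the 27, against 5.6% of all genes. Groups did not overlap for 14 of the 27, against 58.9% of all genes. The median difference of the tested members was 0.08 on the log2 scale (0.05 without resistant replicate 2), beside -0.01 for all genes tested. These shares are descriptions of a chosen set and were not tested.

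**Figure D1:**
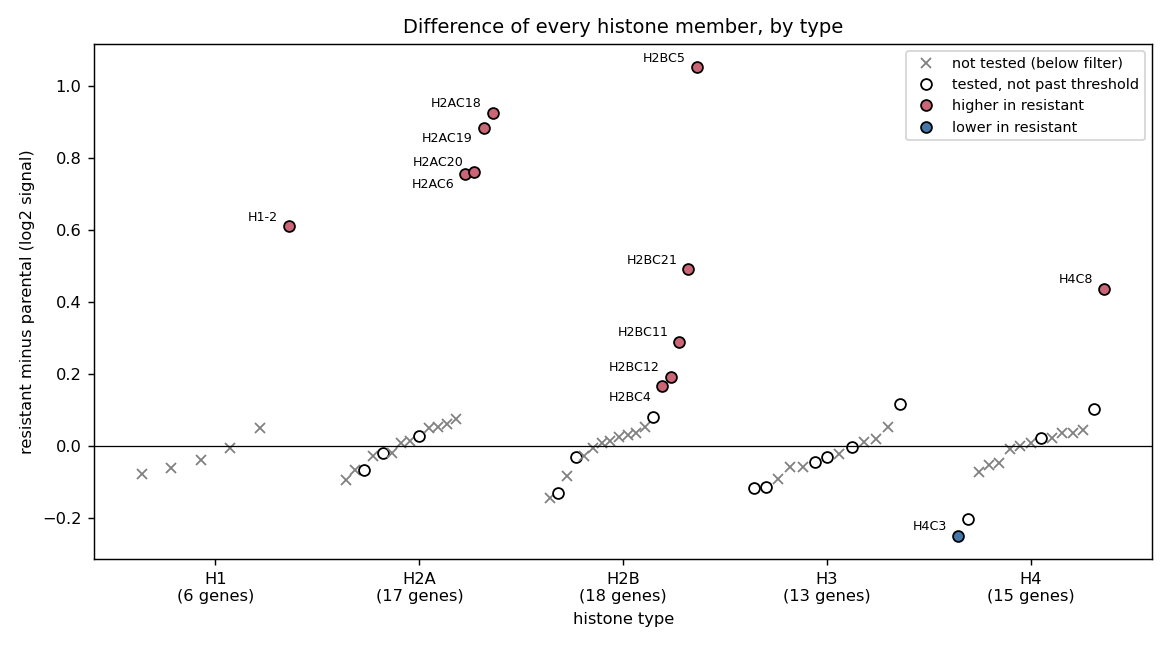
Difference between resistant and parental cells (mean log2 signal, resistant minus parental) for each of the 69 histone genes, grouped by histone type; each symbol is the brightest probe of 1 gene. Filled symbols passed the limma threshold, open circles were tested and did not pass, and grey crosses were below the filter. The 11 higher genes are H2A, H2B, H1 and H4 genes, and the lower one is H4C3. None of the 6 tested H3 genes, all close to background, passed.

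The H2B genes, which pair with H2A in the nucleosome, held both the largest difference and some of the smallest called ones. H2BC5 had parental signals of 9.55, 9.31 and 9.66 and resistant signals of 10.47, 10.52 and 10.69. The groups did not overlap, and H2BC5 rose 2.07-fold, by 1.05 in log2 signal (SE 0.0857, limma adjusted p = 2.84e-07). The array carries 3 H2BC5 probes, and they did not behave alike. A second probe for the same RefSeq transcript went from 8.54 ± 0.111 to 9.40 ± 0.118 (mean ± SD, n = 3 each), a difference of 0.87. The third, annotated to another RefSeq transcript of H2BC5, was at background on every array, at 6.72 ± 0.0285 and 6.73 ± 0.0499.

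H2BC21, an H2B gene of the cluster on chromosome 1, had parental signals of 7.48, 7.40 and 7.60 and resistant signals of 7.88, 8.06 and 8.01. It rose by 0.49 (SE 0.0681, limma adjusted p = 4.27e-05), with every resistant array above every parental one. H2BC11 went from 7.37, 7.20 and 7.24 to 7.68, 7.61 and 7.39. Its lowest resistant array exceeded its highest parental array by little, and the rise was 0.29 (SE 0.0769, limma adjusted p = 0.00629). H2BC12, which was bright in both groups, had signals of 11.73, 11.60 and 11.62 in parental and 11.79, 11.81 and 11.94 in resistant cells. The rise of 0.19 (SE 0.0618, limma adjusted p = 0.0183) was 1.14-fold. Its second probe was also higher, at 9.33 ± 0.0933 and 9.61 ± 0.0136. H2BC12 did not pass when parental replicate 2, parental replicate 3 or resistant replicate 3 was left out (adjusted p = 0.0666, 0.0537 and 0.0858) and with the background subtracted (0.0881); all alternatives lay between 0.00267 and 0.0881.

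H2BC4 was the called member nearest the threshold (difference 0.17, limma adjusted p = 0.0275). Its signals were 6.946, 6.996 and 6.907 in parental cells, where only replicate 2 was above background, and 7.087, 7.069 and 7.189 in resistant cells. H2BC4 did not pass when parental replicate 1, parental replicate 3 or resistant replicate 3 was left out (adjusted p = 0.0601, 0.0876 and 0.113; 0.0045 to 0.113 over the alternatives). On the other side of the threshold, H2BC9 had 7.02, 6.97 and 7.06 in parental cells and was at background on all resistant arrays, at 6.90, 6.93 and 6.83. The difference of -0.13 did not pass (limma adjusted p = 0.0668). H2BC9 passed with the trended, robust moderation (adjusted p = 0.0245) and with the mean of probes (0.0473), and ranged up to 0.206. Because H2BC9 entered the test through the parental arrays alone, these calls are no support for a fall. The remaining tested H2B genes, H2BC8 and H2BC18, differed by 0.08 and -0.03 and did not pass, and 10 H2B genes were not tested.

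**Figure D2:**
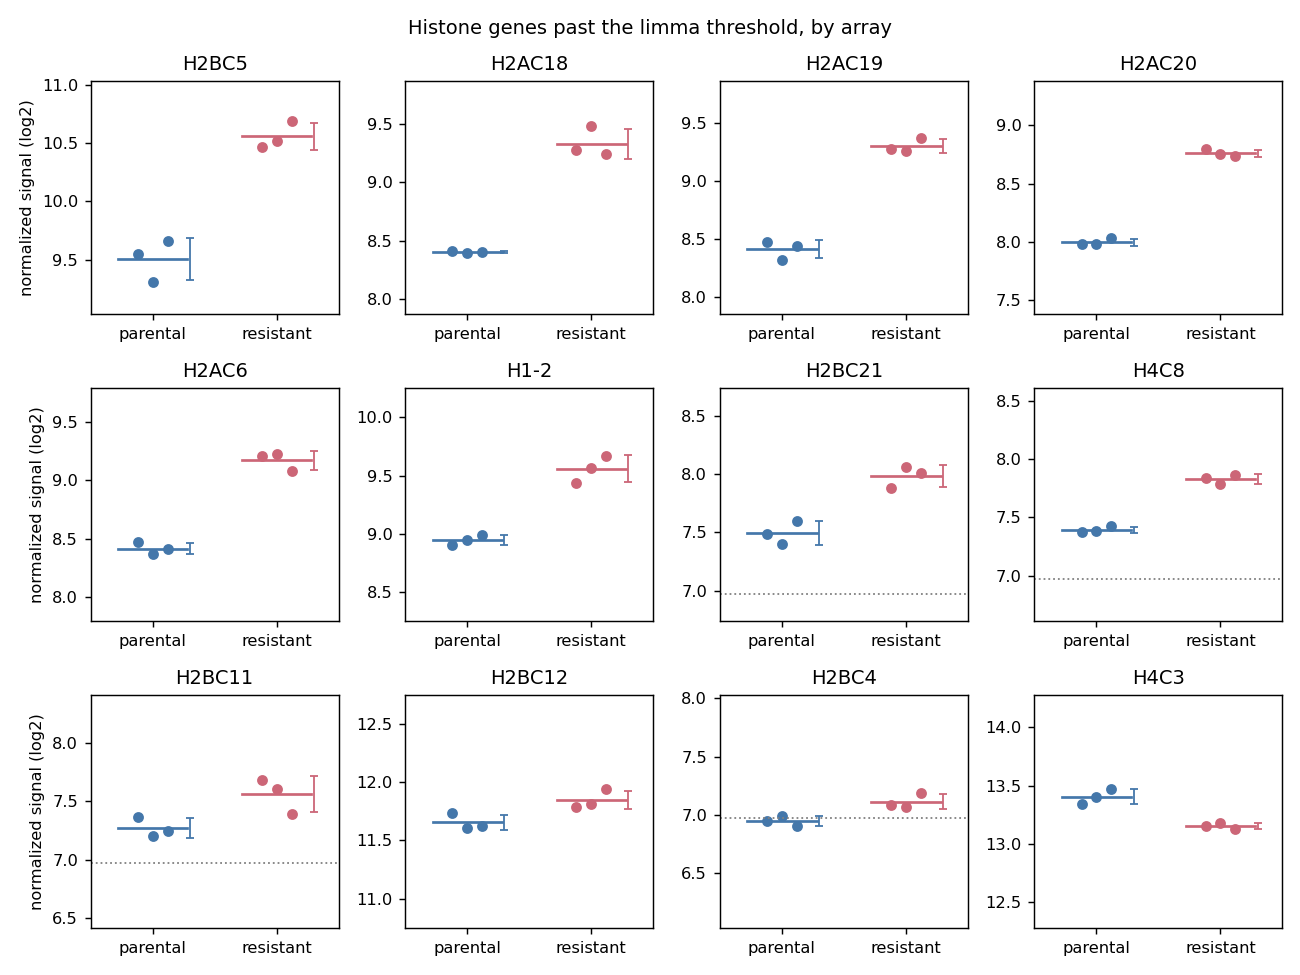
Normalized log2 signal of the 12 histone genes past the limma threshold on each of the 3 parental (blue) and 3 resistant (red) arrays; lines are group means, bars are SD, each panel spans 2 log2 units, and the dotted line is the background limit where it falls in the panel. In every panel the groups do not overlap, and only H4C3 is lower in resistant cells.

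Among the H2A genes, 4 of 7 tested rose and 0 fell with limma (0 also at an unadjusted p under 0.05 and with trended, robust moderation), and 10 were below the filter. Of all genes tested 26% rose and 26.8% fell, and 2 of the 4 H2A genes, H2AC18 and H2AC19, may be 1 observation. H2AC18 had parental signals of 8.42, 8.40 and 8.40 and resistant signals of 9.28, 9.48 and 9.24. It rose by 0.93 (SE 0.0664, limma adjusted p = 8.19e-08), and its second probe differed by 0.72. H2AC19 had 8.47, 8.32 and 8.44 in parental and 9.27, 9.26 and 9.36 in resistant cells, a rise of 0.88 (SE 0.0606, limma adjusted p = 5.36e-08). H2AC18 and H2AC19 are near-identical copies: their upstream windows differed at 0 of the 249 bases compared. Their signals cannot be assigned to one copy or the other.

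H2AC20, in the same cluster, had tightly grouped signals of 7.98, 7.98 and 8.03 in parental and 8.80, 8.76 and 8.73 in resistant cells. The rise was 0.76 (SE 0.0537, limma adjusted p = 7.02e-08). H2AC6, in the large cluster on chromosome 6, had 8.47, 8.37 and 8.41 in parental and 9.21, 9.23 and 9.08 in resistant cells. It also rose by 0.76 (SE 0.0605, limma adjusted p = 2.38e-07). The gaps between the groups of H2AC6 and H2AC20 were several times the spread within a group. The tested H2A genes past no threshold were H2AC11, H2AC17 and H2AC25, with differences of -0.02, -0.07 and 0.03 and overlapping groups.

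Neighbouring H2A and H2B genes that share an upstream stretch are set side by side in the plot of head-to-head pairs. The promoter table held 11 such pairs, with 193 to 247 bases between the 2 starts. In 5 pairs neither gene was tested, and in 3 both were. In 2 of these 3, H2AC20 with H2BC21 and H2AC6 with H2BC4, both genes were higher in resistant cells. Of all genes tested 26% were higher, which is a share of single genes and not of pairs. H2BC4 lay close to background in parental cells and did not pass in 3 of its 12 alternatives. In the third pair, H2BC11 rose by 0.29, and H2AC11 did not pass, with a difference of -0.02 (limma adjusted p = 0.806). H2AC11 lay just above background, with array values of 7.03, 7.20 and 7.15 in parental and 7.04, 7.16 and 7.12 in resistant cells. The difference between the 2 genes of a pair was not tested. All 3 stretches printed above hold the octamer on one strand, the H2BC11 and H2AC11 stretch included.

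**Figure D3:**
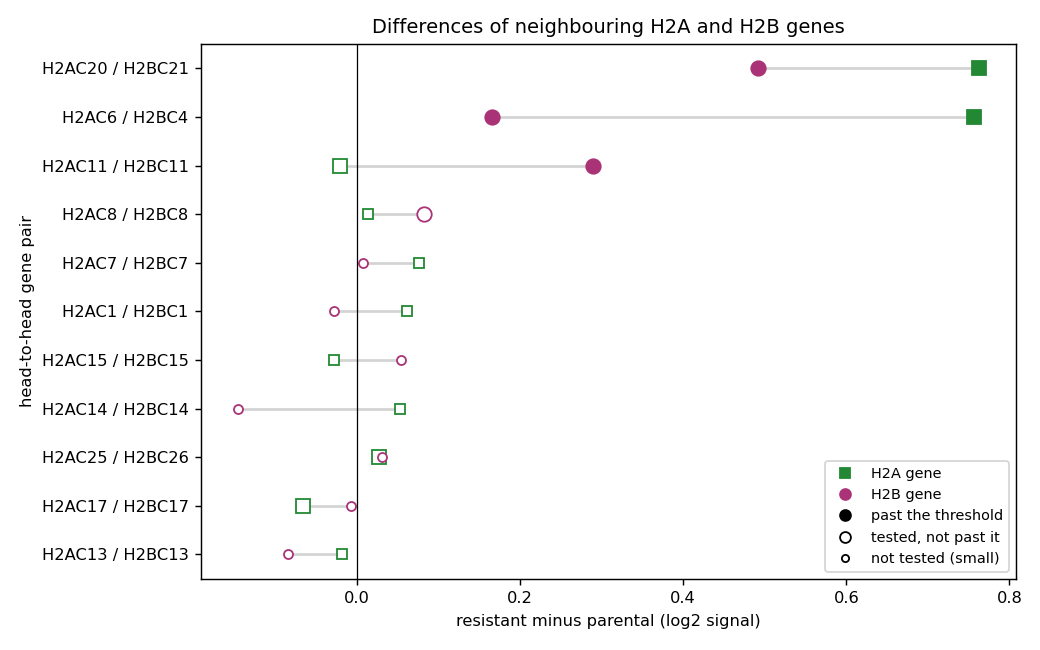
Difference between resistant and parental cells (log2 signal) for the H2A gene (square) and the H2B gene (circle) of each of 11 head-to-head pairs; filled symbols passed the limma threshold, large open symbols were tested and did not pass, and small open symbols were below the filter. The pairs H2AC20 / H2BC21 and H2AC6 / H2BC4 are higher on both sides, with H2BC4 close to background. In H2AC11 / H2BC11 the H2B gene passed and the H2A gene, close to background, did not.

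Among the linker histone genes, whose products bind DNA between nucleosomes, H1-2 alone was tested. It had parental signals of 8.90, 8.95 and 8.99 and resistant signals of 9.44, 9.56 and 9.67. The groups did not overlap, and H1-2 rose 1.53-fold, by 0.61 in log2 signal (SE 0.0652, limma adjusted p = 3.79e-06). H1-1, H1-4, H1-5 and the testis gene H1-6 were at background on all arrays. H1-3 was above it on 2 parental arrays only.

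The H4 genes went both ways. H4C8 had parental signals of 7.37, 7.38 and 7.42 and resistant signals of 7.84, 7.79 and 7.86, and rose by 0.44 (SE 0.0542, limma adjusted p = 1.55e-05). H4C3 was the only member that fell, from 13.35, 13.40 and 13.47 to 13.16, 13.18 and 13.13. The fall of 0.25 in log2 signal (SE 0.0562, limma adjusted p = 0.00202) took place close to the highest value on the arrays (13.76). Near that end a change can be compressed, which was not tested. The difference between the rise of H4C8 and the fall of H4C3 was not tested either, although the groups of each did not overlap.

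Of the other tested H4 genes, H4C12 had a wide parental spread, with 7.58, 7.34 and 7.87, against 7.38, 7.44 and 7.35 in resistant cells. The groups overlapped, and the difference of -0.20 did not pass (limma adjusted p = 0.104). Without parental replicate 2 the difference of H4C12 was -0.33 and passed (adjusted p = 0.00676; up to 0.489 over the alternatives), so 1 array decides that call. H4C14 and H4C15, near-identical copies that may share signal, differed by 0.02 and 0.10 and did not pass.

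No H3 gene, of 13 named and 6 tested, passed with limma, against 52.8% of all genes tested that did. At an unadjusted p under 0.05, and with trended, robust moderation, 1 did (H3C10). The 6 differed by -0.12 to 0.12 and sat low on the scale, with group means between 6.92 and 7.27. The part of this low signal in the count was not tested. H3C10 had 7.06, 7.05 and 6.99 in parental cells and was at background on all resistant arrays (6.88, 6.95 and 6.91). The difference of -0.12 did not pass (limma adjusted p = 0.0869). Because H3C10 entered the test through the parental arrays alone, its calls under other settings are no support for a fall. The H3C10 groups did not overlap, and the groups of the probes that stand for the other 5 tested H3 genes did. H3C13 has 2 tested probes, whose differences were both below 0 but unlike in size. The brighter had 6.95, 7.07 and 6.997 in parental and 7.06, 6.94 and 6.92 in resistant cells (difference -0.03), and the other 7.02, 7.03 and 7.05 against 6.79, 6.94 and 6.91 (-0.15), without overlap and at background on all resistant arrays. H3C7 differed by -0.11 (limma adjusted p = 0.12), with signals of 7.30, 7.31 and 7.22 in parental and 7.24, 7.13 and 7.12 in resistant cells. H3C4 differed by 0.12 (limma adjusted p = 0.127), with 6.96, 6.88 and 7.06 in parental and 7.09, 7.06 and 7.10 in resistant cells. With the background subtracted, H3C10 passed as lower (adjusted p = 0.0374) and H3C4 as higher (0.0455). Values below the background limit were set to that limit there. H3C4 exceeded it on 1 parental array and H3C10 on 0 resistant arrays, so the limit sets much of that group's mean and spread. H3C10 also passed with the trended, robust moderation (0.0364; up to 0.206), and H3C4 without parental replicate 3 (0.0456; up to 0.381).

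By position, the 11 higher genes came from both large histone clusters. Going by their older names, which carry a cluster number, 7 were among the 55 members of the first cluster, on chromosome 6. The other 4 were among the 11 members of the second, on chromosome 1. Of the first cluster 18 genes were tested and of the second 8. The higher genes were 38.9% and 50% of these, against 26% of all genes tested. The 2 members of the third cluster, H2AC25 and H2BC26, gave 1 tested gene, H2AC25, which did not pass, and H4C16, on chromosome 12, was not tested. A difference between clusters was not tested, and 2 of the 4 genes of the second cluster are the near-identical H2AC18 and H2AC19.

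The differences of dim genes depended on whether the background was subtracted, and whether the log2 signals understate them was not tested. With the background mode subtracted on the linear scale, the rises were 1.02 for H4C8, 1.04 for H2BC21, 0.83 for H2BC11, 0.82 for H2BC4 and 1.15 for H2AC20, each over 1.5 times its main value. H2BC5 and H2AC18 then stood at 1.18 and 1.22 and H4C3 at -0.25. Differences below 0 also grew, for H4C12 to -0.49, H3C7 to -0.45, H3C10 to -0.43 and H2BC9 to -0.31. Of these last genes only H3C10 passed. Values below the background limit were set to that limit, as for H2BC4 on some parental arrays. Markers of other cell types moved between the same groups. Of 8 fibroblast markers 1 exceeded the limit on every parental array and 4 on every resistant array (summed log2 signal 9.95 to 9.98 and 10.90 to 10.92), with PDGFRB and THY1 at background throughout. DCN and LUM, at background on the parental arrays, were at least 5.55-fold and 2.38-fold higher (limma adjusted p = 1.06e-12 and 2.75e-10). COL1A1 rose by 0.55 (limma adjusted p = 2.52e-06). COL1A2, also at background on the parental arrays, was at least 1.12-fold higher (difference 0.25, limma adjusted p = 0.00158). Of 7 leukocyte markers with a named probe 3 were above background on all arrays of both groups (10.86 to 10.97 and 11.76 to 11.90), with PTPRC, CD3E, ITGAM and NKG7 at background. CD68 rose by 1.38 (limma adjusted p = 3.84e-09), and CD14 and CD79A differed by 0.11 and -0.07 and did not pass. Of 7 endothelial markers 0 and 1 were above it on all arrays (9.60 to 9.61 and 9.68 to 9.69). The latter was PECAM1, at least 1.22-fold higher (limma adjusted p = 2.56e-05), and the other 6 were at background throughout. Because DCN, LUM, COL1A2 and PECAM1 entered the test through the resistant arrays alone, their p-values are no support for a rise. The part of the markers of other cell types in the histone values was not tested.

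Genes of histone variants that are expressed outside S phase went mostly down where they passed. Of 15 listed variants 11 were tested; 1 rose and 5 fell, against 26% and 26.8% of all genes, with a median difference of -0.12. MACROH2A2, a variant with a large added domain, fell by 1.22 (SE 0.0587, limma adjusted p = 1.6e-09), from 9.53, 9.42 and 9.48 to 8.22, 8.33 and 8.22. MACROH2A1 fell by 0.48, the linker variant H1-10 by 0.44 and the centromeric H3 variant CENPA by 0.44. H2AJ, an H2A variant, was the 1 that rose. It went from 9.352, 9.188 and 9.272 to 10.007, 9.998 and 9.996, with no overlap, a rise of 0.73 (SE 0.0582, limma adjusted p = 2.35e-07). H2AX and H2AZ1 differed by -0.12 and -0.09 and did not pass (limma adjusted p = 0.113 and 0.185); H2AX passed without resistant replicate 1 (0.0398; up to 0.287).

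The factors that transcribe and process histone mRNA were mixed. Of 32 listed, 25 were tested; 4 rose (16%, against 26% of all genes) and 8 fell (32%, against 26.8%), with a median of -0.08. The share called, 48%, was close to the 52.8% of all genes. NPAT, the coactivator of histone transcription, differed by -0.08 (limma adjusted p = 0.299), and SLBP, the protein that binds the stem-loop, by -0.14 (adjusted p = 0.101). SLBP passed with the mean of its probes (difference -0.19, adjusted p = 0.0166) and without parental replicate 1 (0.0416), and ranged up to 0.361. Cyclin E1 (CCNE1) and its kinase CDK2, which phosphorylates NPAT, fell by 0.60 and 0.56 (limma adjusted p = 1.52e-06 and 2.6e-06). CPSF3, the endonuclease of the cleavage complex, fell by 0.36. SNRPB and SNRPG, Sm proteins that serve both the spliceosome and the U7 particle of histone mRNA processing, fell by 0.72 and 0.41. The 4 that rose, named after their values were seen, were TUT7, CPSF1, LSM10 and NCBP2, by 0.33, 0.28, 0.22 and 0.21.

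Most histone chaperones and nucleosome assembly factors that passed were lower. Of 25 listed, 23 were tested; 10 fell (43.5%, against 26.8% of all genes) and 1 rose (4.35%, against 26%), with a median of -0.16. The share called, 47.8%, was close to the 52.8% of all genes. The helicase subunit MCM2, which also binds H3 and H4, fell by 0.69 and the H3-H4 chaperones ASF1A, DNAJC9, ASF1B and NASP by 0.58, 0.48, 0.44 and 0.40. CHAF1A, a subunit of the replication-coupled assembly factor CAF-1, fell by 0.20 (SE 0.0549, limma adjusted p = 0.00682). The 1 that rose, NAP1L1, an H2A-H2B chaperone, differed by 0.34 and is named after its value was seen.

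Genes of S-phase DNA replication, one of the lists in the side-by-side plot, were mostly lower. Of 34 listed, 33 were tested; 29 fell (87.9%, against 26.8% of all genes) and 0 rose with limma, also at an unadjusted p under 0.05 and with trended, robust moderation, and the median was -0.43. The licensing factor CDT1 fell by 1.29 (SE 0.0561, limma adjusted p = 5.85e-10), from 9.93, 9.89 and 9.91 to 8.66, 8.55 and 8.65. GINS2, MCM6 and MCM2 of the replicative helicase, the last also counted among the chaperones, fell by 1.27, 0.71 and 0.69, and RFC5 of the clamp loader by 0.63. The histone genes and this list were measured on the same arrays, and their directions were not tested against each other.

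**Figure D4:**
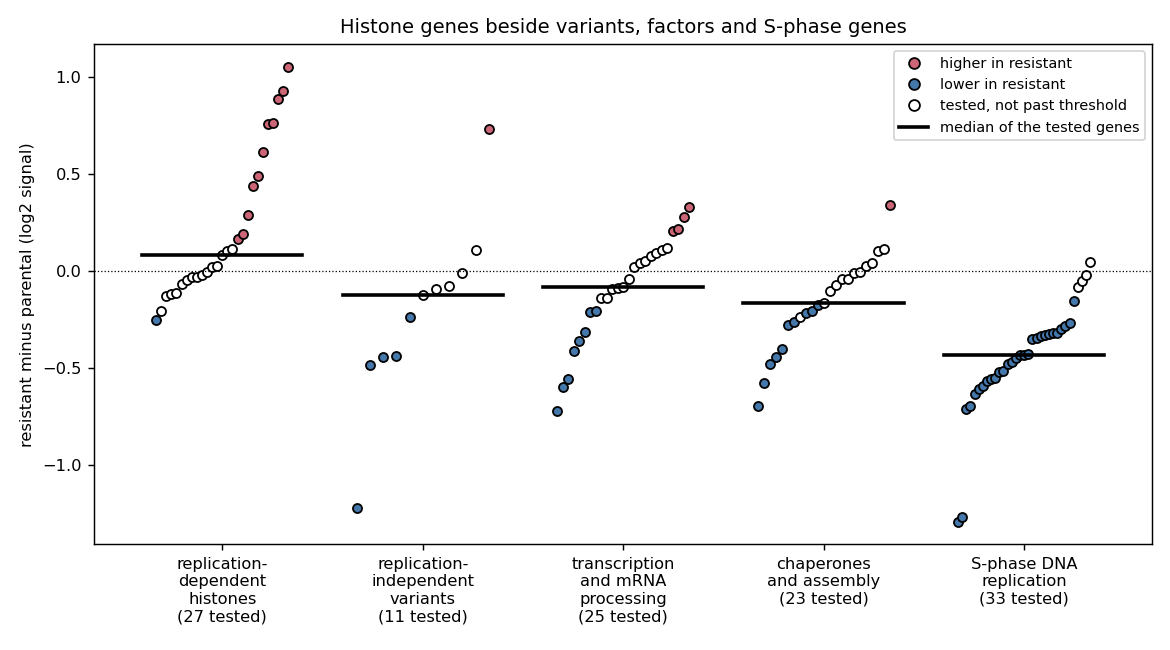
Difference between resistant and parental cells (log2 signal) for the tested genes of the histone set and of 4 lists, each point 1 gene ordered by size; red points were higher and blue points lower past the limma threshold, open points did not pass, and thick bars are medians. The histone set has most of its called genes above 0, with a median of 0.08, and the S-phase list has all of its called genes below 0, with a median of -0.43.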

How the data were processed

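Total RNA of 3 parental and 3 resistant HN5 samples was measured on Illumina arrays. Groups and replicate numbers came from the sample titles. The log2 values are the authors' normalized signals as deposited, for 47230 probes. Their scale was inferred from the range, and the sorted values of the arrays differed by at most 0.00434, as after quantile normalization; the method is not given in the sources used here. An unnormalized signal table was left out, since none of its 12 value columns names a sample, and so normexp correction was not run.

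Probes were named through the platform annotation (30112 with 1 symbol, 8 with several, 17110 not listed); 30073 were matched to RefSeq by Entrez ID, which changed 0 symbols. The brightest tested probe stood for each gene, so 15315 probes gave 11421 genes. The groups were compared in R 4.3.3 with lmFit and eBayes of limma 3.58.1 (residual degrees of freedom 4, prior 8.95), a script tested on simulated data. Where 1 group was at background, a bound on the fold was taken between the brighter group's mean and the dimmer group's limit. Precision is limited by the number of arrays. The members, lists and alternatives were chosen with earlier results of these data known, so counts over them are descriptions. Named genes are all histone genes past the threshold, the 3 tested genes of each type with the smallest adjusted p, the members nearest the threshold, up to 5 genes per list by smallest adjusted p, and SLBP, NPAT, H2AX, H2AZ1 and CHAF1A; further genes are named to account for members or small counts. The 4 motifs were chosen with the array results known. Listed genes with no named probe were not analysed here. Alternatives covered the filter, the probe choice, cyclic loess, background subtraction, moderation, a replicate block and leaving out each array.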

Additional observations from a re-analysis of the deposited data

How the results depend on the processing

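Under 13 alternatives the number of higher histone genes stayed between 9 and 11 (9 to 11 with 1 array left out, 10 with the stricter filter, which kept 20 members). The number of lower ones was 2 without the filter (H2BC14 added), 2 with the mean of probes, 2 with the background mode subtracted, 3 with trended, robust moderation, and 1 to 2 with 1 array left out. Subtracting the background mode moved the median difference from 0.08 to 0.20. It was 0.15 with the stricter filter, which tested fewer genes, and 0.05 without resistant replicate 2 (0.05 to 0.09 with 1 array left out). The cause of these changes was not tested. Of the 11 higher genes, 9 passed under every alternative run, and so did H4C3; the exceptions were H2BC4 and H2BC12, given above. Genes near 0 changed sign without passing: H3C6 to 0.0054 with cyclic loess, and with 1 array left out H2AC11 (-0.0677 to 0.0142), H2AC25 (-0.0263 to 0.0882), H3C6 (-0.0257 to 0.0157), H3C13 (-0.0731 to 0.00028) and H4C14 (-0.0014 to 0.058). The replicate block gave 11 higher and 1 lower histone genes and 6140 changed genes, against 6031; same-numbered arrays deviated together at r = 0.144, 0.0012 and 0.0861, so the numbers were not taken as pairs. Dim probes limit what can be seen: 42 of 69 members gave no tested value.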

Other observations

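A probe annotated to both H3C11 and H3C6, and so used for neither gene, had signals of 7.13, 7.16 and 7.18 in parental and 7.32, 7.55 and 7.46 in resistant cells, a difference of 0.29 without overlap. The own probe of H3C6 differed by -0.0038, and that of H3C11, which was below the filter, by -0.09. The difference of the shared probe was not tested.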
